A study of Mus musculus with 4 samples.

Results

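Ribosomes are built in the nucleolus, where RNA polymerase I (Pol I) transcribes the rDNA repeats and the long precursor rRNA is modified by small nucleolar ribonucleoproteins (snoRNPs), cleaved and packed with proteins into the 40S and 60S subunits. The small-subunit (SSU) processome folds and cuts the 18S part of the precursor, and separate sets of factors build the 60S subunit. A growing oocyte stores ribosomes for the embryo. In fully grown mouse oocytes dispersed chromatin that leaves the nucleolus bare (the non-surrounded nucleolus or NSN configuration) gives way to a chromatin ring around it (surrounded nucleolus, SN). Here the transcripts of 56 genes that encode Pol I factors, abundant nucleolar proteins, snoRNP proteins and assembly factors of both subunits were described. They were taken by symbol from a list chosen with earlier results of these data known. All 56 were found among the 16861 genes listed in each library.

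The samples were 4 poly(A) RNA libraries of germinal vesicle oocytes, the stage before meiotic maturation, with 2 of NSN and 2 of SN oocytes. The oocytes came from antral follicles of C57BL/6J female mice of 3 weeks, and the configuration was read from Hoechst staining under a microscope, so each group rests on that sorting, and oocytes that could not be classified were left out. Each library held 15 pooled oocytes and was amplified by Smart-seq2 with 18 PCR cycles. The protocol speaks of 3 samples for each group, of which 2 were analysed here. No label says that the 2 libraries of a group came from separate mice, so p-values measure the spread between these libraries, which may be technical. The authors gave expression as FPKM, read pairs divided by exon length and by the total of the library. FPKM is a share of the library and carries no amount of RNA per oocyte, so a smaller amount of other transcripts and a larger amount of a gene's own transcript cannot be told apart.

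Read totals ranged from 17069772 to 17998361 read pairs. All 12 oocyte markers examined were present, and their summed FPKM was 26051 and 24303 in NSN against 17776 and 17011 in SN oocytes, with 8 of the 12 called lower in SN. Of 15 granulosa and cumulus cell markers, 10 were listed, with Amh and Foxl2 not among them. Their summed FPKM was 9.82 and 13.6 in NSN and 14.2 and 13.5 in SN libraries. Most of this was Cyp19a1, at 5.81 and 8.06 FPKM in NSN and 8.38 and 8.22 FPKM in SN libraries, while 6 of the 10 averaged under 0.5 FPKM. Of 8 markers of theca, stroma and blood, Pecam1 alone was listed, at 4.49 and 4.96 FPKM in NSN and 4.51 and 4.56 FPKM in SN libraries. Of the 12 oocyte markers, 11 lay lower in both SN libraries than in both NSN libraries, and Kit lay higher in both. Summed, the oocyte markers thus took a smaller share of the SN libraries, and the part of this in the other values was not tested.

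Calls were made by limma on log2(FPKM + 0.5) over the 11672 genes that averaged 0.5 FPKM or more, and needed a 1.2-fold difference with an adjusted p under 0.05. In that test 7.93% of all genes were called, 5.95% higher and 1.98% lower in SN oocytes. Of the 56 nucleolar genes, 54 passed the filter, and 11 of these were called, which is 20.4%. The list was chosen with earlier results of these data known, so this share is no independent test of the list. An unadjusted p under 0.05 was found for 28 of the 54, beside 31.7% of all genes. The 10 called higher were Ncl, Gnl3, Heatr1, Utp3, Utp14a, Utp18, Utp20, Mphosph10, Bms1 and Ebna1bp2, and the 1 called lower was Noc4l. The 54 genes were more abundant than most, with a median of 10.8 FPKM against 4.45 FPKM for all genes tested. When the test was limited to genes averaging 5 FPKM or more, 14 of 37 nucleolar genes were called, beside 27.1% of all genes. The part of transcript level in the calls was not tested. Nop16 and Rrs1, both factors of 60S assembly, lay under the filter with mean FPKM of 0.447 and 0.265. The smallest two-sided p that exact permutation of 2 and 2 libraries allows is 0.333, and the calls therefore rest on the variance limma shares across genes. All 11 adjusted p-values lay close to the threshold, from 0.036 to 0.046. In a simulated data set with known changes, a larger share of the calls was false than this threshold states. Without NSN replicate 1 or without SN replicate 2, limma called none of the 54 genes, while 19 and 17 had an unadjusted p under 0.05 (backgrounds of 0% and 0.0942% called). Without SN replicate 1 it called Utp14a, beside 1.27% of all genes, and without NSN replicate 2 it called 12, beside 14.4%.

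The median log2 fold change of the 54 genes was 0.20, and that of all genes tested was 0.14. A log2 fold change above 0 was seen in 41 of the 54 nucleolar genes and in 66.7% of all genes. Both SN libraries lay above both NSN libraries for 35 of the 54, against a background of 44.8%, and below them for 9, against 17.8%. When each library was scaled to the median ratio of its genes, the median of all genes became 0.005 and that of the nucleolar genes 0.047. Under that scaling 2 of the 54 were called, Utp14a higher and Noc4l lower, beside a background of 2%, and 33 lay above 0. Summed over the 56 genes, FPKM as deposited was 1612 and 1608 in NSN and 1754 and 1769 in SN libraries, so the groups did not overlap before scaling. Median scaling divides the NSN libraries by 0.926 and 0.975 and the SN libraries by 1.06 and 1.05. The gap between the sums therefore holds for the unscaled values only.

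**Figure D1:**
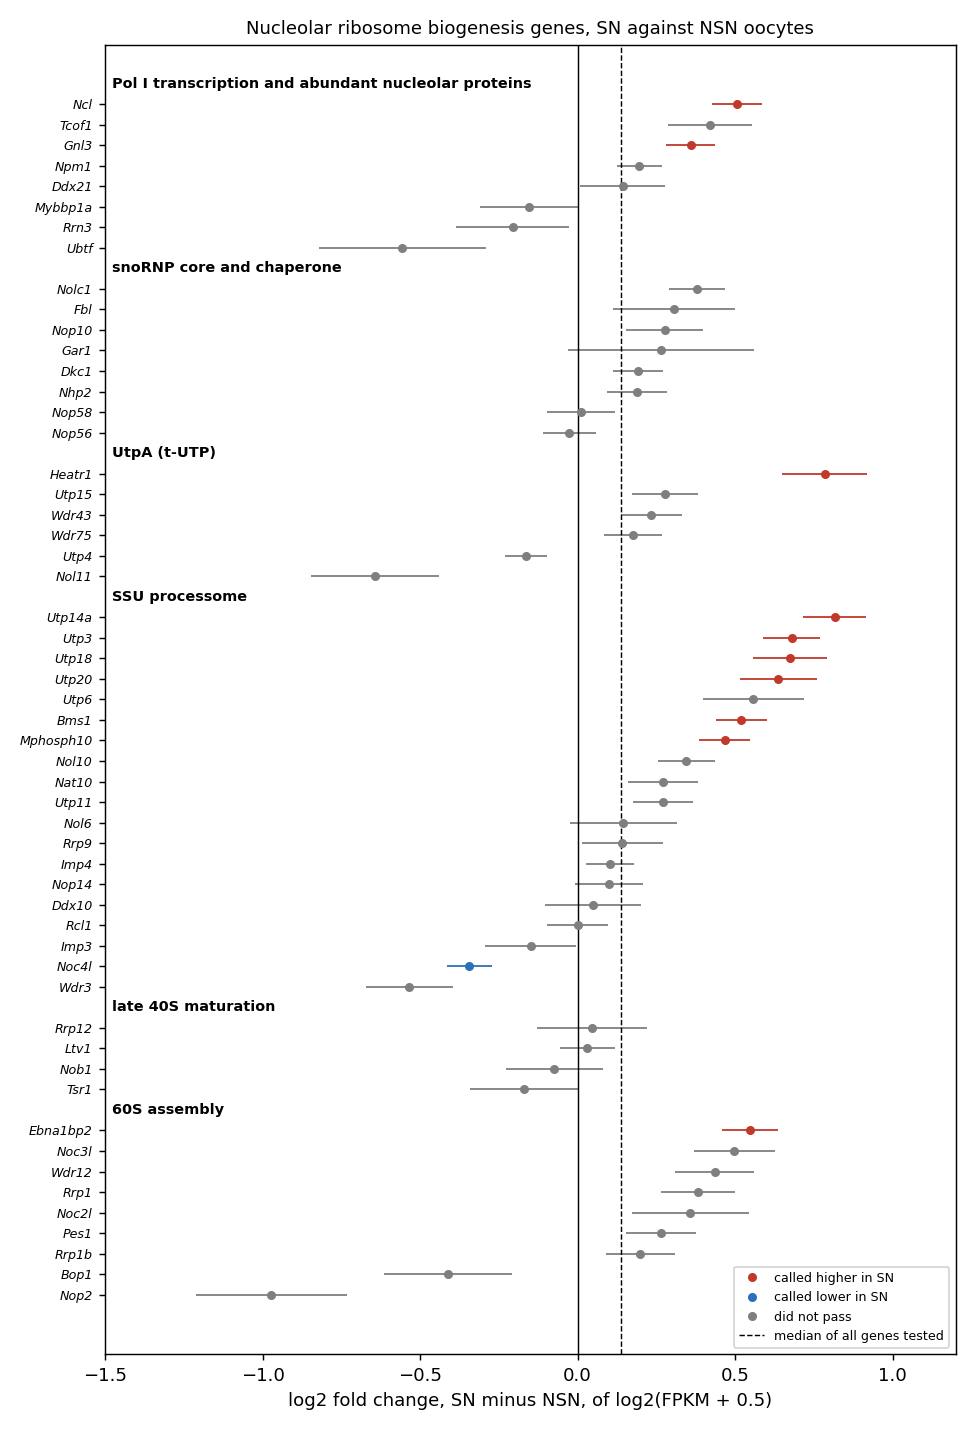
Log2 fold change of log2(FPKM + 0.5), SN minus NSN (horizontal axis), of the 54 genes tested, grouped by role; points are limma estimates from 2 libraries per group and bars are their standard errors (SE). The SSU processome holds 6 of the 10 genes called higher, while the 4 factors of late 40S maturation lie around 0 and to the left of the dashed line at the median of all genes, 0.14.

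Promoters of ribosome biogenesis genes often hold the E-box CACGTG, bound by Myc and related factors, and many promoters hold the ETS site CCGGAAG. Both were searched on both strands in RefSeq promoter windows of the GRCm38.p6 build, from 250 bases before to 50 bases after the start site, for the 46 tested genes that had a window. A gene counted once however many matches it held. The E-box reads the same on both strands, and the 2 orientations of the ETS site can share letters. An E-box was found in 12 of the 46 genes (26.1%), against 11.5% of all tested genes with a window, and an ETS site in 19 (41.3%), against 20.7%. The match closest to the start site is printed below within 30 bases of the gene's own strand, for the 6 genes called higher that held an ETS site, with the site in capitals.

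Heatr1, chr13:12395348-12395377, plus strand: gtagtgagaagCCGGAAGttcctatgaggc
Utp3, chr5:88554313-88554342, plus strand: agcgttcctacCCGGAAGttttcattcgcc
Utp18, chr11:93885742-93885771, minus strand: ggcgcagactcCTTCCGGctccccggggcc
Mphosph10, chr7:64392230-64392259, minus strand: ttggcgtactgCTTCCGGccggccggccgg
Bms1, chr6:118419405-118419434, minus strand: gacagtttccgCTTCCGGcgtcgtgcttgc
Ebna1bp2, chr4:118620785-118620814, plus strand: caacgagaaaaCCGGAAGtgcggctatgaa

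All 10 genes called higher had a window, so 4 of them held no such letters there. E-boxes in capitals are shown for Utp18 and Utp20, the 2 genes called higher that held one, for Utp4, the most abundant transcript of the list, and for Nop2, the tested gene with the most negative log2 fold change on the log2(FPKM + 0.5) scale.

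Utp18, chr11:93885769-93885798, minus strand: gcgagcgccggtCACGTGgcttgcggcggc
Utp20, chr10:88826765-88826794, minus strand: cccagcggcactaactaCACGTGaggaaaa
Utp4, chr8:106893643-106893672, plus strand: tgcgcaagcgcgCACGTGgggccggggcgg
Nop2, chr6:125131811-125131840, plus strand: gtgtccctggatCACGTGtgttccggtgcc

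The E-box lay 20 bases before the start site of Utp18 and 60 before that of Nop2, and past the start site in Utp20 and Utp4. Genes with an E-box spread widely in their change between configurations. Their log2 fold changes ran from -0.97 for Nop2 to 0.67 for Utp18 with a median of -0.06, and 6 of the 12 were below 0. For the 34 genes without one the median was 0.27 and 6 were below 0. Over all tested genes with a window the medians were 0.10 with and 0.14 without an E-box. For the ETS site the medians were 0.35 with and 0.18 without it among the nucleolar genes, and 0.13 and 0.14 over all genes. These medians were looked at after the fold changes were known and were not tested.

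Transcript levels differed by orders of magnitude within the list. The mean FPKM over the 4 libraries was at least 100 for 4 genes, at least 10 for 27 and under 1 for 8, with a median of 9.55. The most abundant were Utp4 at 316 FPKM, Noc4l at 174, Mphosph10 at 152 and Npm1 at 146. Whole read pairs could be worked out for all 56 genes, and 10 had under 100 read pairs in every library, so their values are less precise. Reads were counted without strand, so a read in an exon shared with another gene could not be assigned to either gene by strand. The counting options that the authors list hold none that assigns a read to more than 1 gene. How many reads this left out of the values was not examined. More than 10% of the exons were shared for 13 genes, among them Utp18 (12.1%), Ebna1bp2 (10.1%), Wdr3 (11.6%), Dkc1 (20.1%), Nop56 (22.0%), Nhp2 (25.2%) and Bop1 (15.3%). These percents come from a later gene annotation than the one behind the FPKM, and the exons of the 2 can differ. For Utp18 the later annotation holds 7539 exon bases, against a length of 2613 worked out from the FPKM. The 11 called genes had between 429 and 11883 read pairs in each library.

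**Figure D2:**
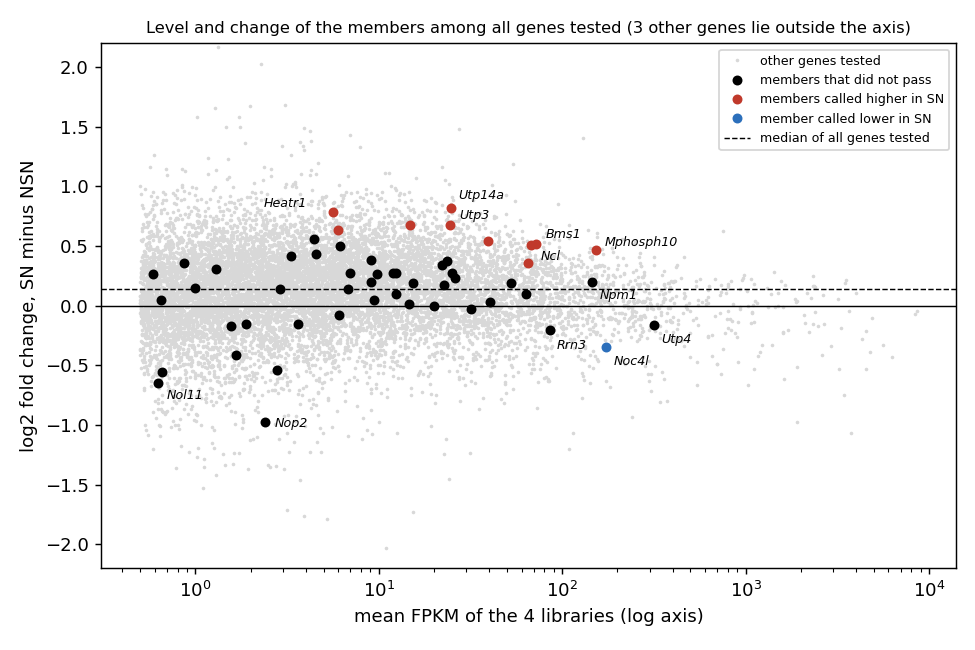
Mean FPKM of the 4 libraries (log axis) against log2 fold change, SN minus NSN, for the nucleolar genes (large points) among all 11672 genes tested (small grey points). The genes called higher lie between 5.59 FPKM (Heatr1) and 152 FPKM (Mphosph10), and Nop2 lies at -0.97 without passing the test.

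Among the 8 genes for Pol I transcription and abundant nucleolar proteins, Ncl and Gnl3 were called higher and 6 did not pass, with a group median of 0.17. Nucleolin, encoded by Ncl (ENSMUSG00000026234.14, chromosome 1 of GRCm39 from 86272441 to 86287208), binds precursor rRNA and nucleolar chromatin. Ncl FPKM was 57.5 and 54.2 in NSN against 78.6 and 80.5 in SN libraries. The SN libraries were close to each other and well above both NSN libraries, a ratio of the means of 1.42. The log2 difference was 0.51 (SE 0.08, adjusted p = 0.036 by limma). Gnl3 (ENSMUSG00000042354.9, chromosome 14 from 30734389 to 30741364), the gene of the nucleolar GTPase nucleostemin, had 55.7 and 57.8 FPKM in NSN and 72.0 and 73.9 in SN libraries. Here too the groups did not overlap, with a log2 fold change of 0.36 (SE 0.08, adjusted p = 0.046 by limma).

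Npm1 (ENSMUSG00000057113.15, chromosome 11 from 33100281 to 33113267) encodes nucleophosmin, a histone chaperone and structural protein of the granular part of the nucleolus. Npm1 had 138 and 135 FPKM in NSN and 157 and 155 FPKM in SN libraries. Although the groups were apart, its log2 fold change of 0.20 (SE 0.07) did not pass the test (limma adjusted p = 0.12), and it turned to -0.06 after GC content correction. Rrn3, the factor that brings Pol I to the rDNA promoter, was abundant but varied between replicates, with 105 and 77.6 FPKM in NSN against 68.0 and 90.0 in SN libraries, so the groups overlapped. Ubtf, which encodes the rDNA-binding factor UBF, was scarce. Its FPKM was 1.14 and 0.620 in NSN and 0.582 and 0.285 in SN libraries, on 120, 67, 60 and 31 read pairs. Both SN values lay below both NSN values, and its log2 fold change of -0.56 (SE 0.27) did not pass (limma adjusted p = 0.20). It was -0.28 without NSN replicate 1 and -0.83 without NSN replicate 2. Tcof1, the gene of treacle, which joins Pol I transcription to rRNA processing, had 2.70 and 2.84 FPKM in NSN and 4.02 and 3.74 FPKM in SN libraries (limma adjusted p = 0.092). The helicase gene Ddx21 and the Pol I regulator Mybbp1a had log2 fold changes of 0.14 and -0.15 and did not pass.

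None of the 8 genes for snoRNP proteins and their chaperone was called by limma. Their log2 fold changes were above 0 for 7 of the 8, beside 66.7% of all genes. The group median was 0.23, beside 0.14 for all genes, and it was 0.08 after median scaling. Dyskerin (Dkc1), Nhp2, Nop10 and Gar1 form the core of the H/ACA particles that guide pseudouridylation. Dkc1 (ENSMUSG00000031403.16, chromosome X from 74139460 to 74155456) had 49.9 and 48.1 FPKM in NSN and 56.3 and 55.7 FPKM in SN libraries. The groups were apart, and the log2 fold change of 0.19 (SE 0.08) did not pass (limma adjusted p = 0.15) and became -0.02 after GC content correction. Of the other core genes, Nhp2 averaged 15.4 FPKM and Nop10 11.9 FPKM, while Gar1 averaged 0.588 FPKM on 8 to 24 read pairs.

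The box C/D particles, which guide ribose methylation, showed the same unevenness of level. Their shared proteins Nop56 and Nop58 averaged 31.8 and 14.6 FPKM, and the methyltransferase fibrillarin (Fbl) averaged 1.30 FPKM, on 28, 19, 30 and 32 read pairs. Nop56 was nearly level, at 31.6 and 32.5 FPKM in NSN and 31.4 and 31.5 FPKM in SN libraries (log2 fold change -0.03, limma adjusted p = 0.85). Nop58 had a log2 fold change of 0.01, which fell below 0 after median scaling. Nolc1 (ENSMUSG00000015176.13, chromosome 19 from 46064234 to 46073983), whose product Nopp140 chaperones snoRNPs, came nearest to a call in this group. It had 20.9 and 20.1 FPKM in NSN and 27.2 and 26.3 FPKM in SN libraries, so the groups were apart. Its log2 fold change was 0.38 (SE 0.09, adjusted p = 0.052 by limma). It passed among genes averaging 5 FPKM or more (limma adjusted p = 0.025), where 27.1% of all genes were called. By voom it also passed (adjusted p = 0.014), where 19.7% were called. It did not pass after median scaling (0.23, limma adjusted p = 0.17) or quantile normalization (0.22, limma adjusted p = 0.19).

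The UtpA complex is the first part of the SSU processome to bind the nascent precursor. Of its 6 genes Heatr1 was called higher and 5 did not pass, with a group median of 0.20. Heatr1 (ENSMUSG00000050244.10, chromosome 13 from 12409908 to 12455170) had 3.63 and 4.33 FPKM in NSN and 7.43 and 6.97 FPKM in SN libraries. The SN libraries stood well clear of the NSN libraries, at 1.81 times their mean, with a log2 fold change of 0.78 (SE 0.13, adjusted p = 0.037 by limma). Utp4 (ENSMUSG00000041438.10, chromosome 8 from 107619814 to 107649965), also known as cirhin, had 334 FPKM in both NSN libraries and had 301 and 295 FPKM in SN. The replicates lay close together and the groups apart, in the direction opposite to Heatr1, but the log2 fold change of -0.16 (SE 0.07) did not pass (limma adjusted p = 0.15). Nol11 stood at the other end of the range of levels, with 0.946 and 0.796 FPKM in NSN and 0.482 and 0.281 FPKM in SN libraries on 52, 45, 26 and 16 read pairs. Its log2 fold change was -0.64 (SE 0.20, adjusted p = 0.091 by limma), and voom on the read pairs called it lower (adjusted p = 0.031). The remaining genes Utp15, Wdr43 and Wdr75 had log2 fold changes of 0.28, 0.23 and 0.18. That of Wdr75 fell below 0 after GC content correction. In each of these genes both SN libraries lay above both NSN libraries, as for 44.8% of all genes tested. Subunits of this one complex therefore ranged in mean transcript level from 0.626 FPKM to 316 FPKM.

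The other SSU processome factors held most of the calls, with 6 of 19 higher, 1 lower and 12 that did not pass, beside 5.95% higher and 1.98% lower over all genes, and a group median of 0.27. After median scaling only Utp14a and Noc4l of the 19 were called. Utp14a (ENSMUSG00000063785.14, chromosome X from 47345702 to 47372132), whose product activates the helicase that unwinds the U3 snoRNA from the precursor, had 16.9 and 18.5 FPKM in NSN and 30.1 and 33.0 FPKM in SN libraries. The SN libraries lay well above both NSN libraries, at a ratio of the means of 1.78 and a log2 fold change of 0.82 (SE 0.10, adjusted p = 0.036 by limma). It also passed in limma after median scaling (adjusted p = 0.046), quantile normalization (0.044), GC content correction (0.049) and gene length correction. Utp3 (ENSMUSG00000070697.5, chromosome 5 from 88702321 to 88703949), the gene of Sas10, rose from 18.9 and 18.5 FPKM in NSN to 29.2 and 31.2 FPKM in SN libraries, with a log2 fold change of 0.68 (SE 0.09, adjusted p = 0.036 by limma).

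Utp18 and Utp6 encode subunits of the UtpB complex, which joins the particle with the U3 snoRNP. Utp18 (ENSMUSG00000054079.14, chromosome 11 from 93749879 to 93776978) had 10.3 and 12.2 FPKM in NSN and 17.5 and 18.9 FPKM in SN libraries, and its log2 fold change was 0.67 (SE 0.12, adjusted p = 0.038 by limma). Utp6 had 3.05 and 3.93 FPKM in NSN and 5.76 and 4.96 FPKM in SN libraries, apart but with a wider spread, and did not pass (log2 fold change 0.56, limma adjusted p = 0.076). Wdr3, another UtpB gene, had 3.48 and 3.32 FPKM in NSN and 2.15 and 2.23 FPKM in SN libraries. It thus lay lower in both SN libraries, with a log2 fold change of -0.53 (SE 0.14, adjusted p = 0.061 by limma). Utp20 (ENSMUSG00000004356.10, chromosome 10 from 88582469 to 88662699), a large helical-repeat scaffold protein, rose from 4.33 and 4.85 FPKM in NSN to 7.58 and 7.23 FPKM in SN libraries (log2 fold change 0.64, SE 0.12, adjusted p = 0.041 by limma).

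Mphosph10 and Bms1 were more abundant. Mphosph10 (ENSMUSG00000030521.13, chromosome 7 from 64026275 to 64042232) encodes a U3 snoRNP protein that binds Imp3 and Imp4, and had 121 and 134 FPKM in NSN and 179 and 175 FPKM in SN libraries. Its log2 fold change was 0.47 (SE 0.08, adjusted p = 0.038 by limma). Its partners did not pass, with a log2 fold change of 0.10 for Imp4 at a mean of 63.7 FPKM and of -0.15 for Imp3 at 3.65 FPKM, and that of Imp4 fell below 0 after median scaling. Bms1 (ENSMUSG00000030138.10, chromosome 6 from 118360342 to 118396775), a GTPase of the processome, had 56.9 and 61.6 FPKM in NSN and 85.8 and 84.5 FPKM in SN libraries (log2 fold change 0.52, SE 0.08, adjusted p = 0.036 by limma). Rcl1, the partner that Bms1 brings to the particle, was level on the deposited values, with a log2 fold change of 0.0004 and overlapping groups. Its log2 fold change was -0.15 after median scaling and -0.17 after quantile normalization.

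Noc4l (ENSMUSG00000033294.13, chromosome 5 from 110796284 to 110801290), whose product pairs with Nop14 in the 40S pathway, was the gene of the list called lower. It had 191 and 197 FPKM in NSN and 153 FPKM in both SN libraries. The replicate spread was small and the SN mean was 0.787 times the NSN mean, with a log2 fold change of -0.34 (SE 0.07, adjusted p = 0.044 by limma). It was also called after median scaling, quantile normalization, gene length correction and by voom. With the replicate number as a block it was not called (limma adjusted p = 0.068). Nor was it called after GC content correction (0.059), with all listed genes (0.064) or with no variance trend (0.12). With each library left out in turn its log2 fold change ran from -0.37 to -0.32. Nop14 itself had 12.0 FPKM in both NSN libraries and 13.7 and 12.1 FPKM in SN libraries and did not pass (log2 fold change 0.10, below 0 after median scaling). Of the other SSU genes, Nol10, Nat10, Utp11, Nol6, Rrp9 and Ddx10 had log2 fold changes from 0.05 (Ddx10) to 0.35 (Nol10). None of these 6 passed, and those of Rrp9 and Ddx10 fell below 0 after median scaling.

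**Figure D3:**
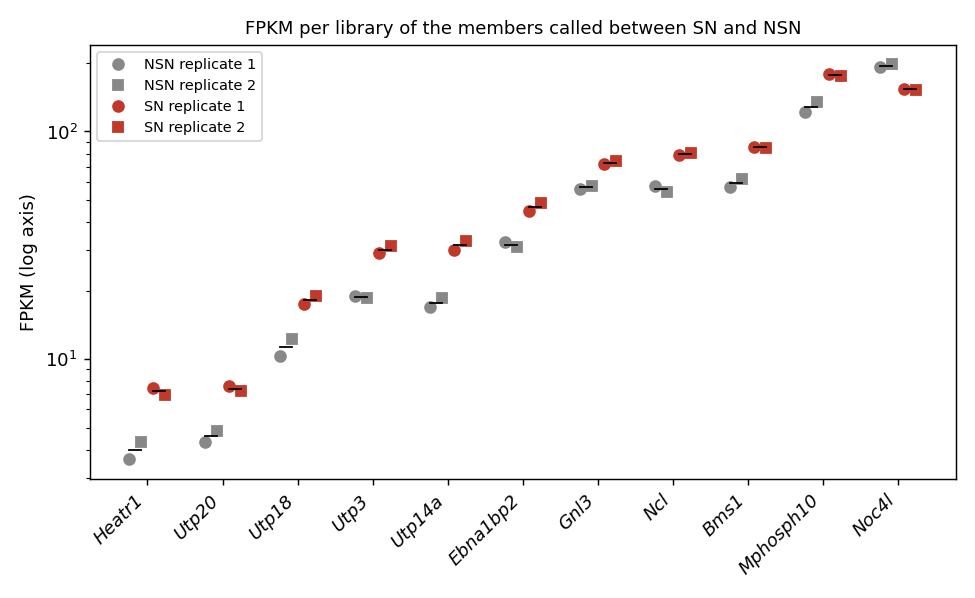
FPKM (log axis) of the 11 genes called between SN and NSN oocytes in each of the 4 libraries; grey points are NSN, red points are SN, circles are replicate 1, squares are replicate 2, and short lines are group means of 2 libraries. Both SN libraries lie above both NSN libraries for 10 genes and below them for Noc4l.

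The genes of late 40S maturation lay close to 0. None of the 4 genes, Rrp12, Ltv1, Nob1 and Tsr1, was called, and their log2 fold changes ran from -0.17 to 0.05. Ltv1, an export and assembly factor of the pre-40S particle, had 38.8 and 41.2 FPKM in NSN and 39.6 and 42.2 FPKM in SN libraries. The groups overlapped, and its log2 fold change of 0.03 (SE 0.09, adjusted p = 0.83 by limma) turned to -0.12 after median scaling. Nob1, the endonuclease that makes the 3′ end of 18S rRNA, had 7.14 and 5.39 FPKM in NSN and 5.97 and 5.76 FPKM in SN libraries. Tsr1, a GTPase-like factor of the same particle, had 1.90 and 1.48 FPKM in NSN and 1.504 and 1.38 FPKM in SN libraries (log2 fold change -0.17, limma adjusted p = 0.53). Other annotated genes overlap 49.1% of its exon bases. Rrp12 averaged 0.651 FPKM on 48 to 53 read pairs.

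Of the 9 tested genes for 60S assembly, Ebna1bp2 was called higher, 8 did not pass, and the group median was 0.36. Ebna1bp2 (ENSMUSG00000028729.17, chromosome 4 from 118477794 to 118492185), the mouse EBP2 gene, had 32.6 and 30.9 FPKM in NSN and 44.8 and 48.5 FPKM in SN libraries. The groups were well apart, at a ratio of the means of 1.47, a log2 fold change of 0.55 (SE 0.09) and a limma adjusted p of 0.036. Wdr12, Pes1 and Bop1 encode the PeBoW complex, needed for 28S and 5.8S rRNA. Wdr12 had 3.62 and 3.92 FPKM in NSN and 5.23 and 5.32 FPKM in SN libraries, Pes1 had 8.47 and 9.13 against 11.2 and 10.2, and Bop1 had 2.19 and 1.75 against 1.65 and 1.09. Their log2 fold changes were 0.44, 0.26 and -0.41, and none passed (limma adjusted p = 0.075, 0.16 and 0.22). The difference between the 3 genes was not tested, and the log2 fold change of Bop1 ran from -0.63 to -0.20 with a library left out.

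Nop2 (ENSMUSG00000038279.12, chromosome 6 from 125108816 to 125121717), the rRNA methyltransferase of the 60S pathway, had the lowest log2 fold change of the 54 genes tested on the log2(FPKM + 0.5) scale, while by voom Nol11 was lower (-1.22 against -1.19). It had 4.27 and 2.49 FPKM in NSN and 1.58 and 1.28 FPKM in SN libraries, on 193, 116, 70 and 60 read pairs. The NSN replicates differed by more than the SN replicates, and the log2 fold change of -0.97 (SE 0.24) did not pass (limma adjusted p = 0.057). With each library left out in turn the value ran from -1.31 to -0.64. It was called lower without NSN replicate 2 (adjusted p = 0.013), with the replicate number as a block (adjusted p = 0.0498) and by voom (adjusted p = 0.010). Noc3l, Rrp1, Noc2l and Rrp1b had log2 fold changes of 0.50, 0.38, 0.36 and 0.20, and none passed. All had both SN libraries above both NSN libraries, as did 44.8% of all genes tested. Rrs1, under the filter, had 0.589 and 0.164 FPKM in NSN and 0.143 and 0.163 FPKM in SN libraries, and Nop16 had 0.687 and 0.540 against 0.467 and 0.0949, on 21, 17, 14 and 3 read pairs.

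Sequence composition moved with the fold changes. Across the 54 genes, Pearson's r between log2 fold change and exonic GC content was -0.28 and Spearman's rho was -0.26, and over all tested genes with a GC value they were -0.21 and -0.24. These are descriptions across genes of the same 4 libraries, with GC content and exonic length from the later annotation, not from the exons behind the FPKM. The part of GC content in the calls was not tested beyond the correction given here. The median GC content was 45.6% for the 10 genes called higher and 48.6% for those that did not pass, while Noc4l had 55.7%. With exonic length rho was 0.04 in the list. After GC content correction 2 of the 54 genes were called, Utp3 and Utp14a, both higher in SN, beside a background of 0.978%. After gene length correction 5 were called, Heatr1, Utp3, Utp14a and Bms1 higher and Noc4l lower, beside 2.74%. Other settings gave 11 calls with a pseudocount of 0.1 or 1 (backgrounds of 6.62% and 8.1%). Among genes averaging 5 FPKM or more, 37 nucleolar genes were tested and 14 called (27.1%). Of the 54 genes, 3 were called after quantile normalization (1.97%), 9 with the replicate number as a block (3.62%) and 19 by voom (19.7%).

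**Figure D4:**
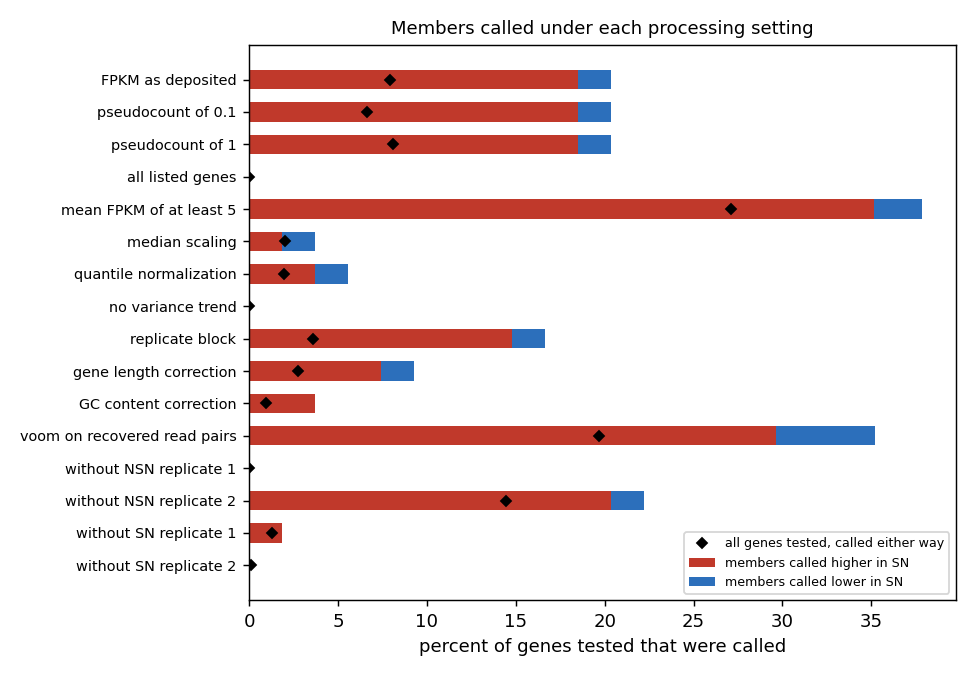
Percent of the nucleolar genes tested that were called higher (red) or lower (blue) in SN oocytes under each processing setting, with all genes tested called in either direction as diamonds. The bar shrinks from 20.4% on the deposited FPKM to 3.7% after median scaling, and no nucleolar gene is called with all listed genes, without a variance trend, or without NSN replicate 1 or SN replicate 2.

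Outside the list, 127 other ribosome biogenesis genes were taken from a second list, of which 125 were listed in the libraries and 115 were tested. Of these, 8 were called higher and 1 lower, which is 7.83% and close to the 7.93% of all genes. Their median log2 fold change was 0.09, against 0.14 for all genes. The Pol I subunits and cofactors had 1 call among 11 genes, Taf1d of the SL1 promoter factor, with 18.0 and 18.6 FPKM in NSN and 25.8 and 27.5 FPKM in SN libraries (log2 fold change 0.53, limma adjusted p = 0.038). Other small-subunit factors had 2 among 30, Fcf1, a PIN-domain protein of the processome, and Lyar, a nucleolar zinc finger protein, at log2 fold changes of 0.45 and 0.42. Other large-subunit factors had 4 among 44, Rrp15, Nol12, Nol8 and the methyltransferase gene Ftsj3, from 0.42 to 0.62. Ftsj3 was named after its value was seen, and it shares 15.8% of its exons with other genes.

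The exosome, which trims the 3′ ends of the precursors, had Exosc3 higher (log2 fold change 0.38, limma adjusted p = 0.048, with 50.7% of its exons shared with other genes) and its cofactor gene C1d lower. C1d had 2.93 and 2.02 FPKM in NSN and 1.002 and 0.541 FPKM in SN libraries, a log2 fold change of -1.23 (SE 0.24, adjusted p = 0.042 by limma). In limma none of 7 genes for snoRNP assembly was called, and 2 of these 7 had an unadjusted p under 0.05, beside 31.7% of all genes. None of the 115 genes was called by limma after median scaling, beside 2% of all genes. An unadjusted p under 0.05 was found there for 37 of the 115, beside 3166 of all 11672 genes tested.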

How the data were processed

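Poly(A) RNA of 2 NSN and 2 SN pools of germinal vesicle oocytes was sequenced, and groups were taken from the sample titles. Per the methods, the authors trimmed reads with Trim Galore 0.6.10, used HISAT2 for alignment to GRCm39 and featureCounts for unstranded exon counts of read pairs, and deposited FPKM values for each library. DESeq2 is also named in the submitters' processing notes. The deposited files hold no comparison columns.

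Library totals (17069772 to 17998361) and read pairs were worked out from the steps between FPKM values, and came out whole in all libraries for 99.9% of genes. They used the smallest length that gives whole pairs, so true pairs may be a whole multiple. A count of 3 read pairs on 1 kilobase equals 0.167 to 0.176 FPKM, which covers counting error only. Log2(FPKM + 0.5) was fitted with limma 3.58.1 (R 4.3.3) with a variance trend, over genes averaging 0.5 FPKM or more, with Benjamini-Hochberg adjustment over all genes tested. Fold changes are on this scale, which understates the change of low genes. In 1 simulated data set with known changes, a larger share of the calls was false than the adjusted p threshold states. The simulation gave every gene the same spread beyond counting error, so the share can differ in these libraries. Coordinates, exonic length, GC content and exon overlap were taken from a GENCODE release on GRCm39 that is later than the one the authors used. Promoters were taken from RefSeq on GRCm38.p6. Tables and plots were made with Python 3.11.15, pandas 2.3.3 and matplotlib 3.10.9.

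The alternatives were other pseudocounts, filters and scalings, corrections for length and GC content, a fit blocked on the replicate number, one with no variance trend, voom on the read pairs, and each library left out. The members and gene lists were chosen with earlier results of these data known. Named with full values were all called genes and, in each role group, the most abundant gene and the one with the largest absolute log2 fold change at 1 FPKM or more. Of the other biogenesis genes, up to 3 called in each direction per list were named. All other members were described after their values were seen.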

Additional observations from a re-analysis of the deposited data

How the results depend on the processing

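Against 11 nucleolar genes called, limma called 11 with a pseudocount of 0.1 or 1, and 14 of 37 among genes of at least 5 FPKM. It called 3 after quantile normalization, 2 after median scaling, 5 after gene length and 2 after GC content correction, and voom called 19. With all listed genes or no variance trend limma called 0, with 27 and 23 at an unadjusted p under 0.05. With a library left out the count ran from 0 to 12. The median log2 fold change was 0.047 after median scaling. For the other ribosome biogenesis genes (9 called) the counts were 18 of 79 at 5 FPKM (beside 27.1% of all genes), 1 after length correction and 24 by voom. The counts were 0 after median scaling, quantile normalization and GC content correction (37, 38 and 39 at an unadjusted p under 0.05 in limma). They were also 0 with all listed genes or no variance trend (44 and 32). Over all genes (926 called, 75.1% higher in SN) they were 1496, 234 (28.6% higher), 230 (32.2%), 112 (28.6%), 314 (38.5%) and 2298 (76.7%) in the order 5 FPKM, median, quantile, GC content, length and voom. With all listed genes or no variance trend limma called 0 (4092 and 3449 at an unadjusted p under 0.05), and 0 to 1685 with a library left out, the 0 being without NSN replicate 1 (2278). The cause of these changes was not tested.

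No label says whether the replicate numbers pair the samples. Across genes, the difference between the 2 NSN replicates and that between the 2 SN replicates had a correlation of -0.07. With 2 libraries in each group this value cannot decide whether the samples were paired. With the replicate block 9 nucleolar genes were called, 8 of them among the 11 and Nop2 lower, while Noc4l, Gnl3 and Utp20 were lost, beside 2 other biogenesis genes and 422 of all genes (63.0% higher).

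Ltv1 changed sign to -0.12 after median scaling, -0.0780 after quantile normalization, -0.0601 after length and -0.0776 after GC content correction, and ran from -0.0140 (without SN replicate 2) to 0.0750 with a library left out. Dkc1 became -0.0196 and Npm1 -0.0594 after GC content correction. Genes under 100 read pairs in every library (10 of the 56) rest on few counts.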
